A study of Mus musculus with 9 samples.

Results

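A set of 9 regulators of the fast and slow fiber programs of skeletal muscle, Six4, Eya1, Tbx15, Sox6, Prox1, Nfix, Tead1, Ppp3ca and Nfatc1, was followed in muscle cells and muscle tissue of the mouse. They were chosen by symbol, and each was matched to 1 Ensembl identifier among the 46078 genes listed for the cultured cells and the 38293 listed for GAS, so that all 9 of 9 were found. GAS is the gastrocnemius muscle of adult female mice, sequenced from poly(A) RNA in 3 biological replicates. MB are primary myoblasts, the precursor cells of muscle fibers, and MT are the myotubes formed from MB after 3 days in differentiation medium, with 2 biological replicates of each, both given PBS as control. A further group of MB received 10 mM sodium-L-lactate in PBS (n = 2). All samples are labelled C57BL/6 (the study's methods name the mice C57Bl6/J), and the cultured cells carry the label of primary cells with no statement of how many mice they came from.

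Adult muscle fibers are slow or fast, and each kind expresses its own set of myosin, troponin and calcium-handling genes. The homeobox factor Six4 with its EYA coactivators, and TBX15, are known to favour the fast, glycolytic program, and SOX6 represses slow genes in fast fibers. Calcineurin, whose catalytic alpha subunit is encoded by Ppp3ca, dephosphorylates NFATc1 in response to calcium, so that NFATc1 enters the nucleus and favours slow genes. PROX1 is required for slow fiber genes, NFIX drives the change from the embryonic to the fetal program, and TEAD1 binds the MCAT element of many muscle genes.

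The cultured libraries held between 5198247 and 10839516 counts on genes and the GAS libraries between 19307793 and 19941574. A count of 3, taken as the detection floor, corresponds to between 0.234 and 0.533 CPM in the cultured cells and to at most 0.155 CPM in GAS, and it covers counting error only. CPM denotes counts scaled to the size of the library with TMM normalisation, computed separately for the cultured cells and for GAS, and RPKM is CPM per kilobase of exon. MT replicate 1 stood apart, with a count for 28599 genes against at most 17965 in any other cultured library. In that library 8918 genes were counted that had no count in the other cultured libraries, and those that code for proteins had a median of 3.23 counts per kilobase. Labels were checked by Pax7, a satellite cell and myoblast factor with 26.9 and 19.6 CPM in MB and 1.09 and 1.60 CPM in MT, and by Myog, a differentiation factor with 91.1 and 35.3 CPM in MB and 774 and 989 CPM in MT. Both genes were called, with log2 fold changes of -4.11 and 3.81.

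**Figure D1:**
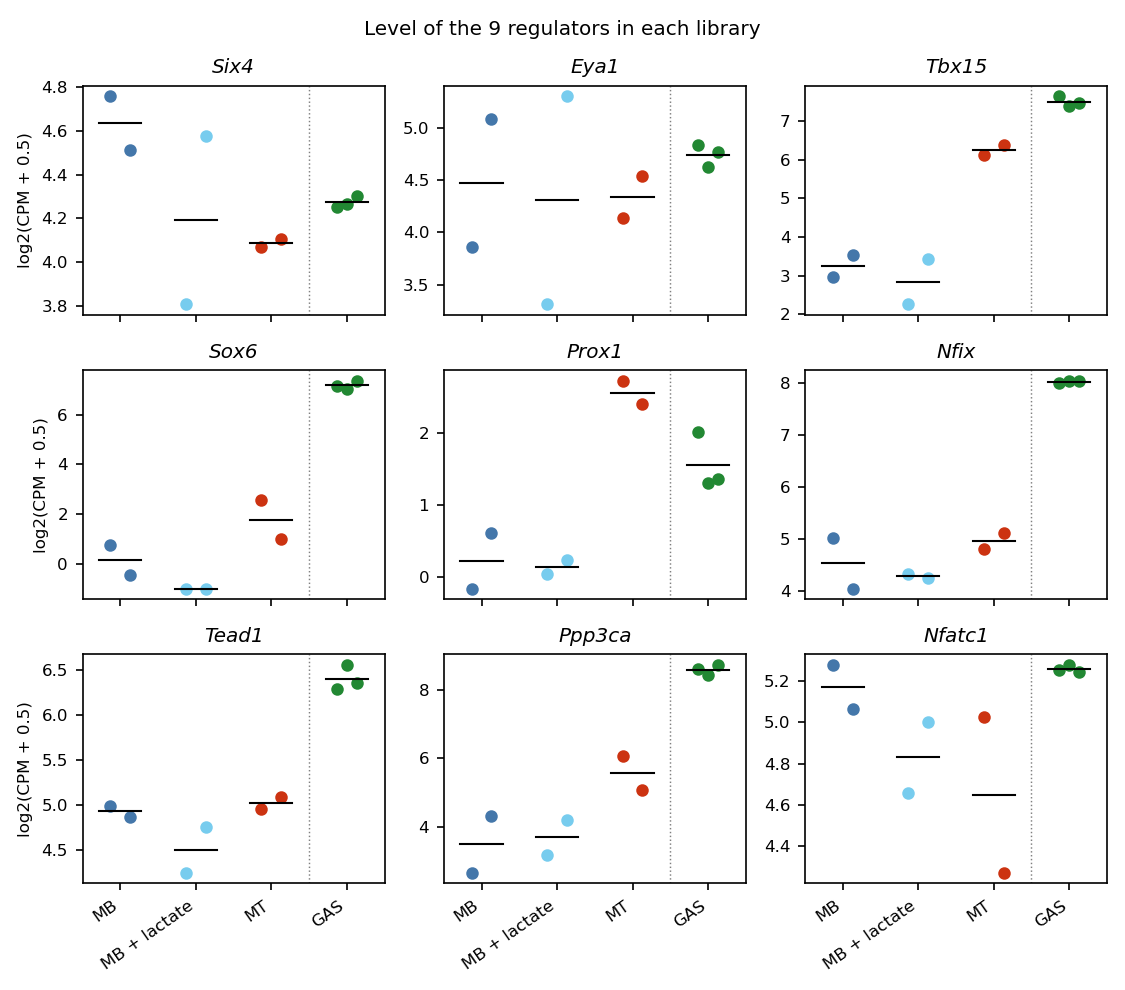
Level of each regulator as log2(CPM + 0.5) in every library, with a bar at the group mean (n = 2 for the cultured groups, n = 3 for GAS). GAS was normalised separately and made with another protocol, so it stands behind the dotted line. Tbx15, Prox1, Ppp3ca and Sox6 have both MT points above both MB points, and Nfix, Sox6 and Ppp3ca in GAS lie far above all cultured cells.

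To ask which regulators changed as MB became MT, both groups were compared across 12921 genes with edgeR's quasi-likelihood test. A gene was called with an adjusted p under 0.05 and an absolute log2 fold change over 0.5. Tbx15 and Prox1 were called higher in MT, and no regulator was called lower. These are 2 of the 9, and 11.0% of all genes tested were called higher and 6.86% lower. All 9 passed the filter on low counts, but Prox1 and Sox6, with at most 9 counts in an MB library, passed it through the MT libraries alone and thus had to be higher there. Nothing is read from counts that include them. Of the other 7 regulators 1 was called higher, Tbx15, beside 6.42% of the 11954 genes that did not pass through MT alone, and the median log2 fold changes of these 7 and of these genes were 0.10 and -0.04. Tbx15 and Ppp3ca had both MT libraries above both MB libraries, as did 33.1% of all genes tested. That share includes genes that passed through MT alone. Prox1 and Sox6 showed the pattern too, but the filter let them in only because they were higher in MT. For Six4 and Nfatc1 both MT libraries lay below both MB libraries, as for 29.2% of all genes tested.

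**Figure D2:**
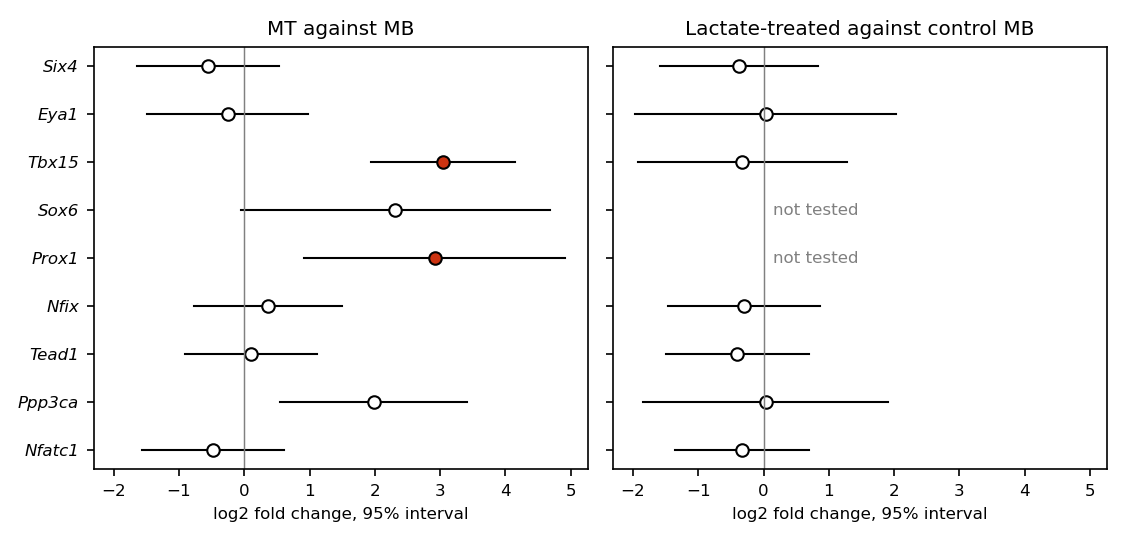
Log2 fold change with its 95% interval for each regulator, MT against MB on the left and lactate-treated against control MB on the right. Filled points mark a call, reached by Tbx15 (3.05) and Prox1 (2.91) in MT, and every interval on the right includes 0.

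Tbx15 (ENSMUSG00000027868, mm10 chr3:99240381-99354259, plus strand, 3747 bp of exon) encodes a T-box factor of glycolytic fibers. It had 7.22 and 11.1 CPM in MB and 69.3 and 82.2 CPM in MT. The groups were thus far apart, and the lowest MT value exceeded the highest MB value. The log2 fold change was 3.05 ± 0.50 (SE, 95% interval 1.94 to 4.15), with an adjusted p of 0.0028 in the quasi-likelihood test. The call held in all 13 alternative fits, in which the log2 fold change ranged from 2.65 to 3.33. In GAS the gene reached 198, 167 and 176 CPM. Its relative Tbx18, a T-box factor of mesenchymal progenitors, had 8.14 and 8.93 CPM in MB and 18.7 and 20.5 CPM in MT, with a log2 fold change of 1.20 and an adjusted p of 0.145 in the same test. Tbx18 had at most 0.518 CPM in GAS. Tbx15 therefore made up 52.8% and 61.0% of the summed RPKM of Tbx15, Tbx18 and Tbx22 in MB, 81.8% and 83.5% in MT and at least 99.8% in each GAS replicate.

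Prox1 (ENSMUSG00000010175, mm10 chr1:190118035-190170714, minus strand, 8390 bp of exon) encodes a homeobox factor that is needed for slow fiber genes and that also defines lymphatic endothelium. It had 3 and 9 counts in MB, or 0.394 and 1.03 CPM, and 79 and 39 counts in MT, or 6.16 and 4.79 CPM. Both MT values lay above both MB values, from a level in MB that was at or just above the detection floor. The log2 fold change was 2.91 ± 0.91 (SE, 95% interval 0.91 to 4.92), with an adjusted p of 0.0485 in the quasi-likelihood test. This p was close to the threshold, and the call was lost in 7 of 12 alternative fits, among them each of the 4 fits that left out 1 library (log2 fold change from 2.27 without MB replicate 1 to 3.69 without MB replicate 2, adjusted p from 0.0612 to 0.533). In MT replicate 1 the gene had 9.42 counts per kilobase, and in MT replicate 2 it had 4.65. Protein-coding genes counted only in MT replicate 1 had a median of 3.23, a value that does not set 1 gene apart from them. Of the lymphatic endothelial markers, Lyve1 had at most 1 count in any cultured library, and Flt4, at 1 count in each MB library, had 96 counts in MT replicate 1 and 0 in MT replicate 2. Pdpn, by far the most abundant of the 3, had 117 and 103 CPM in MB and 49.2 and 54.6 CPM in MT (log2 fold change -1.08, adjusted p = 0.0970 in the quasi-likelihood test), so that the 3 markers summed to 103 to 117 CPM in MB and to 54.6 to 56.7 CPM in MT. Their part in the Prox1 result was not tested. The antisense gene Prox1os, which shares 133 bp of exon with Prox1 on the opposite strand, had at most 1 count in any library. In GAS Prox1 had 3.55, 1.98 and 2.07 CPM.

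Sox6 (ENSMUSG00000051910, mm10 chr7:115470872-116038796, minus strand, 14832 bp of exon), the repressor of slow genes in fast fibers, was hardly detected in culture. It had 9 and 2 counts in MB, or 1.18 and 0.229 CPM, and 69 and 12 counts in MT, or 5.38 and 1.47 CPM. The groups did not overlap, but the lower MT value was close to the higher MB value. The log2 fold change of 2.31 ± 1.07 (SE, 95% interval -0.06 to 4.68) did not pass, with an adjusted p of 0.163 in the quasi-likelihood test. In 12 alternative fits it was never called, and its log2 fold change went from 1.07 without MT replicate 1 to 3.70 without MB replicate 1. In MT replicate 1 Sox6 had 4.65 counts per kilobase, against the median of 3.23 for genes counted only there, and 0.809 in MT replicate 2. In GAS, by contrast, it had 2586 to 3178 counts, or 141, 131 and 165 CPM. Within the SOXD family, Sox6 held at least 87.1% of the summed RPKM in GAS, whereas in MT Sox5 held 59.9 and 54.6% and Sox6 28.6 and 45.4%. The MT shares rest on 69 and 12 counts of Sox6 and on 140 and 14 counts of Sox5.

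Six4 (ENSMUSG00000034460, mm10 chr12:73099609-73113456, minus strand, 10855 bp of exon) and Eya1 (ENSMUSG00000025932, mm10 chr1:14168954-14310235, minus strand, 7808 bp of exon) are partners, a DNA-binding homeobox factor and a coactivator with phosphatase activity. Six4 had 26.5 and 22.3 CPM in MB and 16.3 and 16.7 CPM in MT. Both MT values were below both MB values, yet the log2 fold change of -0.56 ± 0.49 (SE, 95% interval -1.65 to 0.53) did not pass (adjusted p = 0.466, quasi-likelihood test). Eya1 varied more between the MB libraries, with 14.1 and 33.3 CPM, than between groups, with 17.1 and 22.7 CPM in MT. Its log2 fold change was -0.25 ± 0.56 (SE, 95% interval -1.48 to 0.98, adjusted p = 0.793 in the same test). Of the 8 relatives listed 6 were tested and 0 were called in either direction, beside 11.0% higher and 6.86% lower over all genes tested. Among the EYA genes, Eya3 held 77.8 and 50.4% of the summed RPKM in MB and 38.9 and 38.2% in MT, and Eya4 held 2.73 and 10.1% in MB, 23.9 and 26.5% in MT and 40.0 to 40.4% in GAS. The share of Eya1 lay between 15.3 and 37.2% in all of these libraries, GAS included. With the longest transcript as length, Eya1 held 37.1 to 41.5% in MT and Eya3 27.4 to 28.7%, so their order there depends on the length used.

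Nfix (ENSMUSG00000001911, mm10 chr8:84699876-84800344, minus strand, 7351 bp of exon) encodes a nuclear factor I protein. It had 31.9 and 16.0 CPM in MB and 27.4 and 34.0 CPM in MT, so that the groups overlapped. MT differed from MB by a log2 fold change of 0.36 ± 0.51 (SE, 95% interval -0.78 to 1.50), with an adjusted p of 0.669 in the quasi-likelihood test. In GAS it had 255, 264 and 265 CPM, and of all regulators only Nfatc1 and Six4 varied less between the GAS replicates. None of its 3 relatives was called in MT, beside 11.0% higher and 6.86% lower over all genes tested. Nfic, the most abundant, had 390 and 304 CPM in MB, 151 and 282 CPM in MT and 300.4 to 320.7 CPM in GAS. Nfix made up 6.66 and 4.22% of the summed RPKM of the 4 NFI genes in MB, 11.3 and 8.91% in MT and 38.0 to 39.9% in GAS. On the opposite strand G430095P16Rik shares 137 bp of exon with Nfix and Lyl1 shares 4 bp, and these genes had at most 41 and 38 counts in any library.

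Tead1 (ENSMUSG00000055320, mm10 chr7:112679318-112906807, plus strand, 13570 bp of exon) binds the MCAT element together with YAP, TAZ or VGLL coactivators. It had 31.4 and 28.7 CPM in MB and 30.6 and 33.6 CPM in MT, the narrowest range of any regulator over these 4 libraries. The log2 fold change was 0.10 ± 0.46 (SE, 95% interval -0.91 to 1.11), with an adjusted p of 0.904 in the quasi-likelihood test. Of the 8 genes in the list of TEAD factors and coactivators, Tead2 was called lower and 0 were called higher, beside 6.86% and 11.0% of all genes tested. Tead2 had 119 and 69.5 CPM in MB and 23.9 and 39.5 CPM in MT, with a log2 fold change of -1.57 ± 0.48 (SE) and an adjusted p of 0.0465 in the same test. In GAS it had at most 1.14 CPM. Tead4, a TEAD factor of differentiating myoblasts, had 20.6 and 7.10 CPM in MB and 27.9 and 64.5 CPM in MT, with a log2 fold change of 1.74 ± 0.63 (SE) that did not pass (adjusted p = 0.0827 in the same test). The coactivator genes with the highest CPM, Wwtr1 (TAZ) and Vgll3, were not called and had log2 fold changes of 1.08 and 1.40. Each of the 3 groups thus had another TEAD gene in first place by RPKM. Tead2 held 73.6 and 76.5% of the summed RPKM of the 4 TEAD genes in MB, Tead4 held 48.9 and 58.7% in MT, and Tead1 held 69.2 to 73.0% in GAS. Tead1 itself held 6.83 and 11.2% in MB and 14.2 and 8.12% in MT. The call of Tead2 was kept in 8 of 13 alternative fits and lost, for example, without MT replicate 1 (adjusted p = 0.418), while Tead4 was called in 7 of them.

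**Figure D3:**
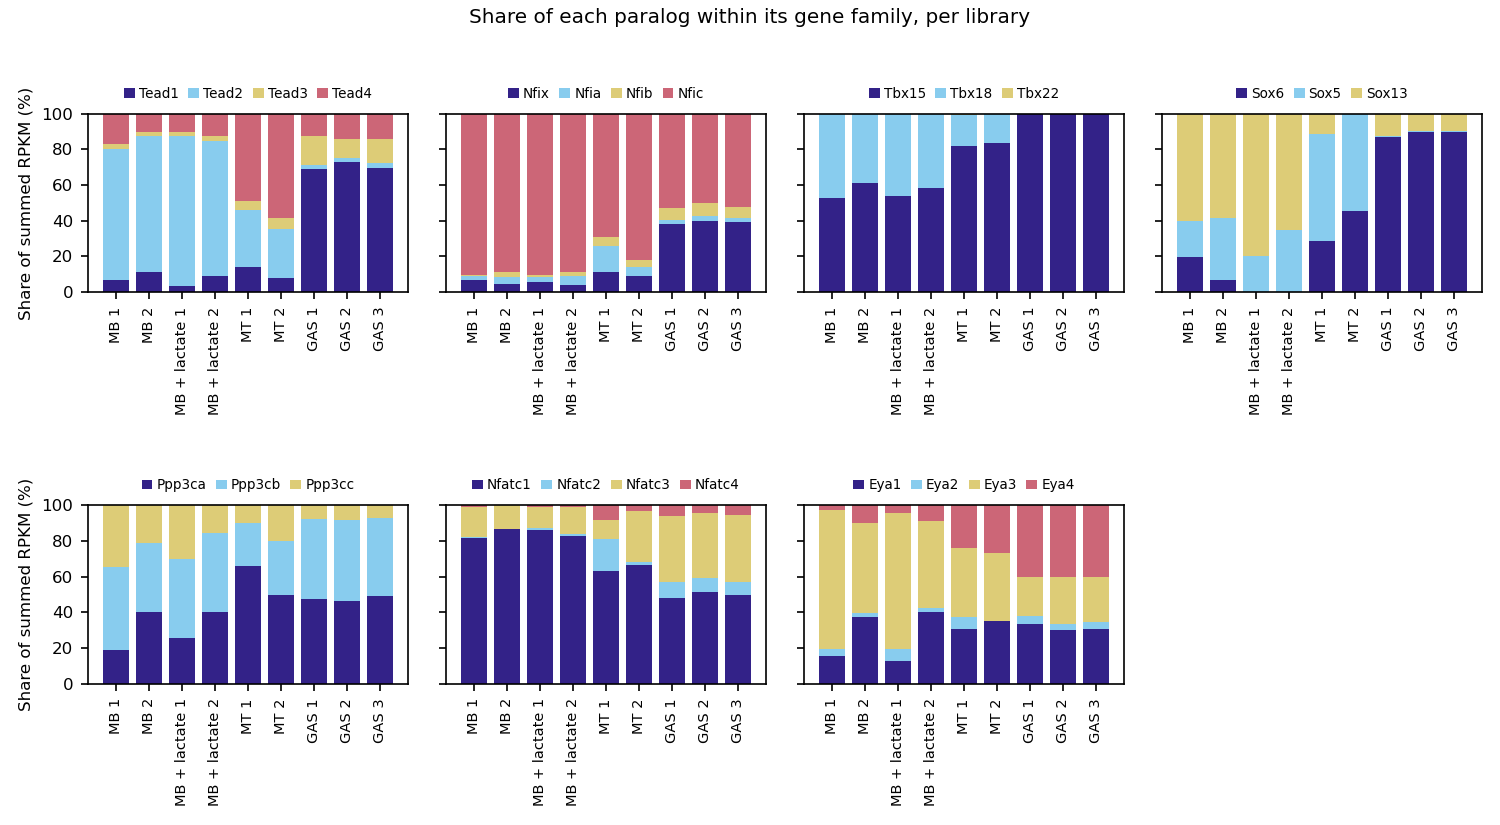
Share of each paralog in the summed RPKM of its gene family, in percent, for 7 families and each of the 9 libraries (bars add up to 100). Tead2 fills most of the MB bars, Tead4 about as much as all others together in MT, and Tead1 at least 69.2% in each GAS replicate, while Nfix and Sox6 take their highest shares in GAS.

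Ppp3ca (ENSMUSG00000028161, mm10 chr3:136670124-136937727, plus strand, 9981 bp of exon) had 5.78 and 19.6 CPM in MB and 66.4 and 33.0 CPM in MT. Both MT values were above both MB values, with a spread of more than 3-fold inside MB. The log2 fold change of 1.98 ± 0.65 (SE, 95% interval 0.55 to 3.41) did not pass, with an adjusted p of 0.0583 in the quasi-likelihood test. The same gene was called in 7 of 13 alternative fits, among them the DESeq2 Wald test (adjusted p = 0.0180) and the fit without MB replicate 2 (log2 fold change 3.03, adjusted p = 1.91e-05). It was not called in the other 6, where the log2 fold change fell as low as 1.21 without MB replicate 1 (adjusted p = 0.158) and was 1.38 without MT replicate 1 (adjusted p = 0.361 in the same test). In GAS it had 391, 350 and 428 CPM. By RPKM it held 19.1 and 40.2% of the 3 catalytic subunit genes in MB, 66.0 and 50.0% in MT and 46.6 to 49.2% in GAS, where Ppp3cb held 43.9 to 45.4%. With the longest transcript as length, Ppp3ca held 46.1 to 48.6% and Ppp3cb 47.5 to 49.4% in GAS, so their order there depends on the length used.

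Nfatc1 (ENSMUSG00000033016, mm10 chr18:80606205-80713071, minus strand, 7469 bp of exon), the calcineurin-dependent factor, had 38.3 and 33.0 CPM in MB and 32.1 and 18.8 CPM in MT. Both MT values were below both MB values, the higher of them only slightly. On the log2 scale the fold change was -0.47 ± 0.49 (SE, 95% interval -1.56 to 0.61), with an adjusted p of 0.545 in the quasi-likelihood test. In GAS it had 37.6, 38.3 and 37.5 CPM. Its share of the summed RPKM of Nfatc1 to Nfatc4 was 81.8 and 86.6% in MB, 62.9 and 66.7% in MT and 48.0 to 51.2% in GAS, where Nfatc3 held 36.9 to 37.5%. Of the 12 other calcineurin and NFAT genes listed, 10 were tested, 1 was called higher and 0 lower, beside 11.0% and 6.86% of all genes tested. The gene called was Lmcd1, which encodes a LIM domain protein that acts with calcineurin. Lmcd1 had 0 and 1 counts in MB and 689 and 295 counts in MT (log2 fold change 9.25, adjusted p = 0.000165 in the quasi-likelihood test). With such counts in MB it passed the filter through the MT libraries alone and thus had to be higher there. Rcan1, a feedback inhibitor and known target of calcineurin and NFAT, had a mean of 3.01 CPM in MB and 6.69 CPM in MT, and its values overlapped. Ppp3r1, the regulatory subunit, and Cabin1, an inhibitor, had log2 fold changes of 0.63 and -1.34 and did not pass.

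Over the 6 lists of related regulators, 35 of 44 genes were tested, 3 were called higher and 1 lower, against 11.0% and 6.86% of all genes. Lmcd1, 1 of these 3, passed the filter through MT alone, so nothing is read from the number called higher. Beside Lmcd1 and Tead2 the genes called were Maf, a large MAF factor of fast fibers, and Bhlhe41, a basic helix-loop-helix repressor. Maf had 2.10 and 0.802 CPM in MB and 10.3 and 11.1 CPM in MT, with an adjusted p of 0.0278 in the quasi-likelihood test. With 16 and 7 counts in MB, Maf too needed an MT library to pass the filter. Bhlhe41 had 9.06 and 33.4 CPM in MB and 253 and 123 CPM in MT, with an adjusted p of 0.0093 in that test. In GAS Maf stood at 294 to 311 CPM and Bhlhe41 at 21.2 to 28.3 CPM. Among genes of the same list that were not called, Fnip1 and Ppard had log2 fold changes of 1.52 and 1.49.

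Of the markers of other cells, 3 fibroblast genes and 1 immune gene were called higher in MT, beside the 11.0% of all genes. Dcn and Col1a1, with at most 8 counts in an MB library, passed the filter through MT alone and thus had to be higher there. The same holds for Itgam, with a mean of 0.180 CPM in MB. Nothing is read from counts that include them. The 5 fibroblast markers (Pdgfra, Dcn, Col1a1, Col3a1 and Lum) summed to between 222 and 507 CPM in MB and to between 14063 and 25161 CPM in MT, and in GAS to 477 to 565 CPM. Most of the MT sum was Col1a1, with 13732 CPM in MT replicate 1 and 1701 CPM in MT replicate 2, and Col3a1, with 10990 to 12252 CPM. Of the 4 tested, Dcn, Col1a1 and Col3a1 were called, with log2 fold changes of 10.97, 13.34 and 5.01. Pdgfra had 1.71 and 1.37 CPM in MB and 5.92 and 2.46 CPM in MT and did not pass (log2 fold change 1.46, adjusted p = 0.270 in the quasi-likelihood test). The 4 immune markers summed to at most 1.44 CPM in MB and to between 3.93 and 15.2 CPM in MT. Only Itgam was tested, and it was called (log2 fold change 4.23), while Ptprc and Adgre1 had counts in MT replicate 1 alone. The 5 endothelial markers summed to between 6.99 and 16.4 CPM in MB and to between 12.8 and 29.7 CPM in MT, with Flt1 as the only one of them over the floor in every MB and MT library. Flt1 was also the only one tested, and it was not called (log2 fold change 0.42). The part of these cell types in the changes of Tbx15, Prox1 and Ppp3ca was not tested, and in bulk RNA fewer cells of a type and less RNA per cell cannot be told apart.

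Most structural genes of both fiber programs were called higher in MT. Of 12 slow fiber genes listed 11 were tested, and 9 were called higher and 0 lower. Of 14 fast fiber genes 13 were tested, and all of these 13 were called higher, beside the 11.0% of all genes. Of the genes called, 4 slow (Csrp3, Myl2, Myoz2 and Pln) and 6 fast (Casq1, Mybpc2, Myh2, Myh4, Myoz1 and Tnnc2) passed the filter through MT alone. Of the others, 5 of 7 slow and 7 of 7 fast genes were called, beside 6.42% of such genes overall. Among these 5, Myh7 had only 11 and 3 counts in MB, so it too needed an MT library to pass the filter. The median log2 fold change was 7.37 for the slow and 7.32 for the fast list, or 6.71 and 7.03 when the 1 slow and 3 fast genes without any count in MB were placed at the bound that 3 counts give. Myh7, the slow myosin heavy chain, had 1.44 and 0.344 CPM in MB and 110 and 263 CPM in MT. Myh4, the fastest myosin heavy chain, had no count in MB and 134 and 136 CPM in MT, which is at least 343-fold higher. The slow genes Myl2, Myoz2, Casq2 and Tnni1 and the fast genes Tnnc2, Casq1, Myh2 and Myh1 were also called. The slow genes Atp2a2 (log2 fold change 0.87) and Tpm3 (0.78), which are also expressed outside slow fibers, did not pass. Per length, Myh7 and Myh4 had mean RPKM values of 21.7 and 22.4 in MT and of 36.4 and 10873 in GAS. Myh7 does not stand for all slow genes here. Mean RPKM was also higher in GAS than in MT for Myl2, Myl3 and Atp2a2. It was lower in GAS for Tnnt1, Tnni1, Tnnc1, Tpm3, Myoz2, Casq2, Pln and Csrp3, with Tnni1 at 627 in MT and 9.97 in GAS. GAS was not tested against MT.

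The sequences around the starts of these genes were read to see which letters of the known binding elements they hold. RefSeq promoter windows of 300 bases (GRCm38.p6, which has the coordinates of mm10), from 250 bases before a start to 50 after it, were given for 4 of the 9 regulators and for 27025 genes in all. Searched on both strands were CATTCC (MCAT, TEAD), TCAGGTT (MEF3, bound by Six4), AACAAT (SOX), GGAAAA (NFAT), AGGTGTGA (T-box) and CAGCTG (E-box, bound by MYOD and MYOG). The windows shown are those of Prox1, the regulator called higher for which a window was given, and of the myosin heavy chain genes Myh7 (slow) and Myh4 (fast). Matches are in capitals, all else in lower case, and no matches overlap each other. Each window reads 5′ to 3′ along the gene, and where a gene has several starts the most upstream was taken. They lie at chr1:190170778-190171077 (minus strand), chr14:54994577-54994876 (minus strand) and chr11:67237562-67237861 (plus strand).
Prox1: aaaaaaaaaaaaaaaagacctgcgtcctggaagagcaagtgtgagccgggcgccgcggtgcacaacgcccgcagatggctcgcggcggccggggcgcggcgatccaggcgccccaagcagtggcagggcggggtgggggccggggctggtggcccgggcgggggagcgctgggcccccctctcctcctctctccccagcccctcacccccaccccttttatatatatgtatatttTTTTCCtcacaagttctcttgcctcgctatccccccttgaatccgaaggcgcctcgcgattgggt
Myh7: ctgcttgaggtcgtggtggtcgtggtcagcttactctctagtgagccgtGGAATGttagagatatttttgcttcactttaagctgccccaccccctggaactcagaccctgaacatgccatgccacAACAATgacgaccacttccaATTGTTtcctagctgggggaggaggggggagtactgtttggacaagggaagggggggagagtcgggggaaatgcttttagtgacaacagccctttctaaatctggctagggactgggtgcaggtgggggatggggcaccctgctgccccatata
Myh4: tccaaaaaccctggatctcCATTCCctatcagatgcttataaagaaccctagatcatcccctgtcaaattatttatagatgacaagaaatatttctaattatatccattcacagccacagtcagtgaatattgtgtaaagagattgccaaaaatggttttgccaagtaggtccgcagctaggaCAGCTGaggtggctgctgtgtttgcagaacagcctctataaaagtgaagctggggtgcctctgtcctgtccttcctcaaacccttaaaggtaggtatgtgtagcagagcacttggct

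The Prox1 window holds the NFAT letters once, on the reverse strand, starting 15 bases before the annotated start. The Myh7 window holds the MCAT letters once and the SOX letters at 2 places, 124 and 104 bases before its start, and the Myh4 window holds the MCAT letters and the E-box. Among all 32851 windows the MCAT letters occur in 14.7%, the SOX letters in 10.7%, the NFAT letters in 23.4% and the E-box in 16.3%, while those of MEF3 and of the T-box occur in 4.07% and 1.28%. Of the 16 windows of 11 slow genes, 3 hold the MCAT, 5 the SOX, 1 the NFAT and 7 the E-box letters. Of the 11 windows of 10 fast genes, 4 hold the MCAT, 1 the SOX, 2 the NFAT and 5 the E-box letters, and none of either set holds those of MEF3 or of the T-box. Windows of 1 gene can overlap, and a match is a description of the letters and not a site.

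To see whether lactate moved the regulators, treated and control MB were compared across 11804 genes. Of the 9 regulators 7 were tested, and none was called, whether at an unadjusted p under 0.01 or at an adjusted p under 0.05, each with an absolute log2 fold change over 0.5. The share called over all genes was 0% by either rule with edgeR's quasi-likelihood test without a replicate block. The DESeq2 Wald test called 1 gene at the unadjusted threshold. The study, with edgeR at the same unadjusted thresholds, reported a small group of genes in each direction and called the global effect minimal. Its methods do not give the model fitted. In the quasi-likelihood fit 5 of all genes had an unadjusted p under 0.05, far fewer than p-values give when nothing changes. The p-values of this fit thus ran high and do not show that lactate had no effect. Among the regulators the smallest unadjusted p was 0.405, for Tead1, and the adjusted p was 1.00 for all 7 in the quasi-likelihood test.

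Tead1 had 31.4 and 28.7 CPM in control and 18.5 and 26.5 CPM in treated MB, a log2 fold change of -0.40 with a 95% interval of -1.50 to 0.69. Nfatc1 had 38.3 and 33.0 CPM in control and 24.7 and 31.6 CPM in treated MB, a log2 fold change of -0.33 (-1.36 to 0.70). These 2 of the 7 had both treated values below both control values, which was found for 7.55% of all genes tested, and none of the 7 had both above, found for 3.46%. Six4 had 13.5 and 23.4 CPM, Nfix 19.6 and 18.6 CPM and Tbx15 4.27 and 10.2 CPM in treated MB, with log2 fold changes of -0.38, -0.30 and -0.33 and intervals that reach down to -1.59, -1.47 and -1.93. Eya1 and Ppp3ca had the widest spread. Eya1 had 9.42 and 38.9 CPM in treated MB, and Ppp3ca had 8.53 and 17.9 CPM, with log2 fold changes of 0.03 (-1.96 to 2.03) and 0.04 (-1.84 to 1.91). For both genes the library numbered 1 was low and the library numbered 2 high in treated as in control MB. Prox1 had 3 and 4 counts in treated MB and was not tested. Sox6, with 9 and 2 counts in control MB, had none in treated MB, where 3 counts correspond to 0.533 and 0.512 CPM, and it was not tested either. The narrowest interval was that of Nfatc1. Changes that lie inside these intervals were not detectable in this fit, which had 2 libraries a group and no replicate block. Across genes, same-numbered treated and control MB libraries deviated together (r = 0.70), which the fit did not take into account.

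In GAS the regulators spanned a wide range of levels per length. Tbx15 came first with an RPKM of 48.1 ± 4.3 (SD, n = 3), and its lowest value, 44.5, was above the highest of Ppp3ca, 42.9. Ppp3ca followed with 39.0 ± 3.9 and Nfix with 35.6 ± 0.7, and their values overlapped. Sox6, at 9.82 ± 1.16, came next, then Tead1 at 6.22 ± 0.62, Nfatc1 at 5.06 ± 0.06, Eya1 at 3.37 ± 0.25 and Six4 at 1.74 ± 0.03 (SD, n = 3 each), without overlap between neighbours. Prox1 was the lowest with 0.302 ± 0.105 (SD, n = 3). Of the genes of GAS, 700 had a higher mean RPKM than Tbx15. The order of the first 2 depends on the length used, since with the longest transcript in place of all exons Ppp3ca reached 81.9 and Tbx15 50.5.

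The order in culture was another one. In MT Tbx15 also came first, with an RPKM of 20.2, followed by Ppp3ca at 4.98, Nfix at 4.17, Nfatc1 at 3.41, Eya1 at 2.55 and Tead1 at 2.37, whose values overlapped from one to the next. Six4 (1.52), Prox1 (0.652) and Sox6 (0.231) were lowest there. In MB Nfatc1 was first at 4.78, Nfix, Eya1, Tbx15, Six4 and Tead1 followed between 3.26 and 2.22 with values that overlapped from one to the next, and Ppp3ca (1.27), Prox1 (0.0849) and Sox6 (0.0476) were lowest. Sox6 thus stood last in both cultures and after Nfix in GAS, and Prox1 was the only regulator whose mean RPKM in GAS was below that in MT. No test was made between GAS and the cultured cells, because poly(A) and Smart-seq2 libraries cannot be told apart from tissue and culture.

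**Figure D4:**
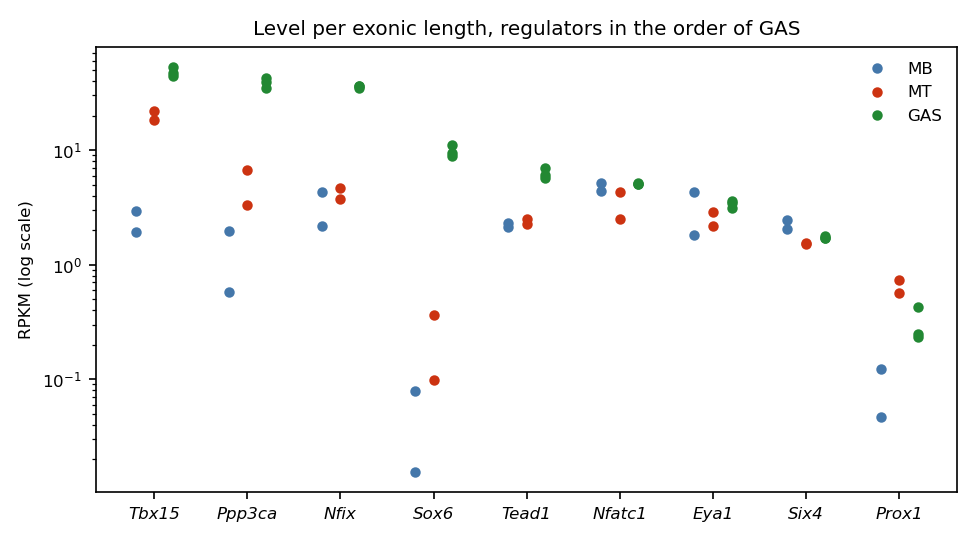
RPKM of each regulator on a log scale, with 1 point per library, for MB (n = 2), MT (n = 2) and GAS (n = 3), in the order of the GAS means. Tbx15, Ppp3ca and Nfix in GAS lie between 34.7 and 52.9, and Prox1 in GAS lies below MT.

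The spread of the regulators between the GAS replicates was set beside that of the fiber genes. The gastrocnemius has slow and fast regions, and their part in the spread was not tested. The coefficient of variation of the 8 regulators with an RPKM over 1 was 1.12 to 11.8%, with a median of 8.19%, close to the 7.38% over all 9874 such genes. The 11 slow fiber genes over that level had 17.8 to 38.9% and a median of 22.8%, Pln, which lay below it with 16 to 39 counts, had 39.9%, and the fast fiber genes had a median of 7.76% and reached 53.7% for Myh1. Prox1 varied by 34.8% on 39 to 70 counts. Of the lymphatic markers, Lyve1 and Flt4 had 61 to 108 and 65 to 81 counts in GAS. The 5 endothelial markers summed to 169 to 183 CPM and the 3 lymphatic markers to 10.7 to 13.4 CPM, and their part in the Prox1 level was not tested.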

How the data were processed

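RNA-seq counts of 9 mouse libraries were used, 3 of GAS and 2 each of MB, MT and lactate-treated MB. Per the submitters' processing notes and the study's methods, the authors trimmed reads with Trim Galore 0.6.6, aligned them to mm10 with HISAT2 2.2.1, counted them on genes with featureCounts (Subread 2.0.1) and deposited raw counts per gene without normalisation. The annotation release, strand setting and handling of reads with several alignments are not given in the sources used here. For GAS poly(A) RNA was used, and for cultured cells Smart-seq2 (full-length cDNA amplified by PCR) on 5 ng of total RNA, so GAS was not tested against cultures. The labels call replicates biological without naming animals or cultures, so p-values measure the spread between these libraries.

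Names, positions and lengths of genes come from GENCODE M21 (mm10), which holds 45229 of the 46078 identifiers of cultured cells and 36429 of the 38293 of GAS. Ccl21a, with 2 identifiers, was left out of the markers. The 9 regulators and all lists were chosen with earlier results of these data known. Whole tables were fitted in R 4.3.3 with edgeR 4.0.16 (filterByExpr, TMM, quasi-likelihood test, Benjamini-Hochberg adjustment over all genes tested), with no block and only the compared groups. The self-test used simulated counts with known changes. Alternatives were RLE size factors, the DESeq2 1.42.0 Wald test, the likelihood ratio test, testing all genes unfiltered, requiring 10 or more counts per library, a replicate block, all 6 cultured libraries in 1 fit, removal of ribosomal RNA genes, leaving out each library, longest transcripts as lengths and total counts in place of TMM. Crossed replicate numbers, and longest transcripts for family shares, were added after seeing the data.

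Named genes are the 9 regulators and, of each list, up to 6 genes called in MT against MB by absolute log2 fold change and up to 2 tested but not called by CPM. Other genes of a family, Rcan1, Mafa, Esrrg, Pvalb, Pax7, Myog and single markers were named after their values were seen. A gene that the list rule would name is not reported here. Likeness of patterns is the root mean square difference of centred log2(CPM + 0.5) over the 6 cultured libraries. Python 3.11.15 with pandas 2.3.3 and matplotlib 3.10.9 was used for the rest.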

Additional observations from a re-analysis of the deposited data

How the results depend on the processing

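Tbx15 was called in all 13 alternatives for MT against MB and no regulator was called for lactate, at an unadjusted p under 0.01, in any of 12. The number of regulators called higher in MT was 1 with at least 10 counts in every library, which left 7 to test, and 1 to 2 when 1 library was left out (1 without MT replicate 1 or MB replicate 1). Log2 fold changes turned sign when 1 library was left out for Eya1 (-0.86 to 0.44), Nfix (-0.12 to 0.82) and Tead1 (-0.12 to 0.16) in MT, and for Six4 (-0.92 to 0.030), Eya1 (-1.44 to 0.93), Tbx15 (-1.20 to 0.23), Nfix (-0.65 to 0.24) and Ppp3ca (-0.70 to 1.32) with lactate. Prox1 also lost its call without the filter (adjusted p = 0.358) and Ppp3ca gained one there (0.00582), both in the quasi-likelihood fit. With the replicate block, Prox1 was not called (adjusted p = 0.0555), Ppp3ca was (0.0167), 5 related regulators were called higher and 0 lower, and Eya1 turned to -0.14 with lactate, for which 7 genes overall were called higher and 6 lower. The labels give same-numbered libraries no shared source, and their deviations from group means correlated with r = -0.13 across genes for MT and MB and 0.70 for treated and control MB. With crossed numbers 2 regulators, 1192 genes in all, were called higher and 867 genes lower. Over all genes, 1343 were called lower in MT with the likelihood ratio test and 766 higher with at least 10 counts, and leaving out 1 library gave 962 to 4118 higher (without MT replicate 2) and 270 (without MT replicate 1) to 1570 lower. Related regulators called higher were 5 with DESeq2 and 4 to 7 when 1 library was left out, and 0 to 4 were called lower. For lactate, 1 gene was called higher with DESeq2 and 1 without the filter, and 1 to 176 higher and 0 to 1 lower when 1 library was left out, 176 of them without MB replicate 2. A fit that leaves out 1 library takes the lone one to vary like the others, and the cause of these shifts was not tested. With the longest transcript as length, RPKM in GAS was 81.9 for Ppp3ca, 47.8 for Nfix, 16.8 for Sox6, 8.47 for Tead1, 7.87 for Nfatc1, 6.04 for Eya1 and 2.76 for Six4. Depth limits Sox6 and Prox1 in MB, where 3 counts correspond to at most 0.394 CPM.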

Other observations

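Among the 59 genes of the lists that were compared, the regulators followed different courses over the 6 cultured libraries. The course nearest to that of Tbx15 was that of Bhlhe41 (root mean square difference of centred log2(CPM + 0.5) of 0.607), then Mybpc2 (0.660) and Maf (0.749), against a median of 1.45 over all of these genes. For Prox1 they were Maf (0.594), Tbx18 (0.596) and Eya4 (0.617), and for Sox6 Rcan2 (0.687), Maf (0.702) and Sox5 (0.706). Ppp3ca was nearest to Eya4 (0.454), Fnip1 (0.497) and Nfia (0.577). Nfatc1 was nearest to Rcan3, an inhibitor of calcineurin (0.174), Yap1 (0.246) and Smarcd3 (0.393), and Six4 to Rcan3 (0.290), Yap1 (0.321) and Nfic (0.347). Tead1 was nearest to Nfatc3 (0.194), its coactivator Yap1 (0.237) and Ppp3cb (0.291), Nfix to the slow tropomyosin gene Tpm3 (0.200), Nfatc3 (0.281) and Vgll4 (0.288), and Eya1 to Nfib (0.525), Ppp3r1 (0.573) and Nfat5 (0.581). The 6 libraries share groups and depth, so these values describe likeness and nothing of shared control. Sox6 and Mybpc2 had no count in treated MB, and Mybpc2 had at most 1 in a control MB library, so the added 0.5 largely sets those points.

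Mafa and Esrrg, regulators of fast and of oxidative fibers, had 0 counts in both MB libraries, at most 1 and 14 counts in MT and 810 to 985 and 241 to 391 counts in GAS, and neither was tested. Pvalb, a calcium buffer of fast fibers, likewise had 8 and 12 counts in MT and at least 202754 in each GAS replicate. Of the promoter windows of TEAD genes and their coactivators, 7 of 10 held the MCAT letters, against 14.7% of all windows, and the 10 windows come from 7 genes.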
